A study of Mus musculus with 10 samples.

Results

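The protease-activated receptors are a family of 4 genes, F2r, F2rl1, F2rl2 and F2rl3, and all 4 were found by gene symbol among the 24421 genes of the count tables. They encode PAR1, PAR2, PAR3 and PAR4. Each receptor is a G protein-coupled receptor that carries its own ligand: a protease cuts the outer end of the protein, and the freshly exposed end folds back and switches the receptor on. Thrombin is the classical activator of PAR1, PAR3 and PAR4, and trypsin and mast cell tryptase activate PAR2. In sensory nerves these receptors are known for coupling clotting, tissue injury and mast cell proteases to nerve activation, and mouse PAR3 is best known as a cofactor that presents thrombin to PAR4 on platelets.

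RNA was sequenced from 10 pools of hand-picked mouse vagal neurons in 5 groups of 2 pools. Nodose neurons, from the caudal end of the fused ganglion, derive from the epibranchial placodes, and jugular neurons, from its rostral end, derive from the neural crest. In the Trpv1 selection, pools of 30 red nodose neurons, 30 red jugular neurons and 15 non-red nodose neurons came from 2 Trpv1-tdTomato mice. These mice carry Cre under the Trpv1 gene and a tdTomato reporter at the Rosa locus, so that a cell stays red if it expressed Trpv1 at any earlier time. The capsaicin selection used C57BL/6 wild-type mice and a calcium assay, with 14 and 15 cells in its nodose pools and 15 and 16 cells in its jugular pools. Every neuron of these 4 pools had responded to capsaicin, the nodose neurons had also responded to an agonist of P2X receptors, and the jugular neurons had not. Selection, mouse strain, sequencing core, cells per pool and depth changed together between the 2 experiments and cannot be told apart. The mouse behind each pool is not given in the sources used here, so the tests measure the spread between pools, which may share animals.

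Total counts were 148452506 to 167704327 in the 6 pools of the Trpv1 selection and 17666710 to 30810863 in the 4 pools of the capsaicin selection, so that low values are less reliable in the latter. Levels are given as CPM, read counts scaled to a common library size with size factors over all 10 pools. A value of 3 counts was taken as the floor and lay between 0.0116 and 0.0154 CPM for the Trpv1 selection, against 0.118 to 0.175 CPM for the capsaicin selection. This floor covers counting error only. The 5 nodose markers summed to 542 to 2855 CPM in the nodose pools and 0.388 to 2.29 CPM in the jugular pools, and the 5 jugular markers to 385 to 1406 CPM in the jugular pools and 1.35 to 37.6 CPM in the nodose pools. Trpv1 itself was at 202 and 118 CPM in the Trpv1-positive nodose pools, at 17.8 and 25.8 CPM in the Trpv1-positive jugular pools, at 70.6 to 248 CPM in the capsaicin pools and at 0.0348 and 0.0334 CPM in the Trpv1-negative pools. Each group therefore carried the markers of its labelled ganglion and selection.

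On GRCm38 (GENCODE vM21) F2r, F2rl1 and F2rl2 sit close together on chromosome 13, and F2rl3 lies alone on chromosome 8. F2r spans chr13:95601803-95618487 on the minus strand and F2rl1 spans chr13:95511732-95525227 on the minus strand. F2rl2 spans chr13:95696853-95702739 on the plus strand, inside an intron of Iqgap2, with which it shares 0 exon bases. F2rl3 spans chr8:72761880-72763874 on the plus strand. Each gene has 2 exons, and the stretch that encodes the tethered ligand lies in a single exon in all 4. These stretches are shown because they are what makes each receptor answer to its own protease cut; capitals mark the 18 coding bases of the ligand, which begin directly after the cut, with 15 bases on either side, read 5′ to 3′ on the coding strand.
F2r, chr13:95604870-95604917: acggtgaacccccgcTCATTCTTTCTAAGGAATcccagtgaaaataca
F2rl1, chr13:95514226-95514273: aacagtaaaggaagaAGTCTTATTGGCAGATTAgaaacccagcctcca
F2rl2, chr13:95700545-95700592: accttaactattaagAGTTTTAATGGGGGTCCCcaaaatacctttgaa
F2rl3, chr8:72762309-72762356: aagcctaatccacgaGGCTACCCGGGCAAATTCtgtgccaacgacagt

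Across the 18 ligand bases, F2rl1 and F2rl2 matched at 10 positions, whereas F2r matched F2rl1 at 5, F2rl2 at 4 and F2rl3 at 3. No stretch of 50 bases, the length of a read, was shared exactly between transcripts of any pair of these genes. F2rl3 alone shared such stretches with another annotated gene, the pseudogene Gm29705.

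The family split into 2 receptors that reached 10 CPM in both pools of a group and 2 that did not. F2r, the thrombin receptor PAR1, was a nodose gene: it was high in every nodose pool and low or near the floor in the jugular pools. F2rl2, PAR3, was present in all 10 pools of both ganglia. F2rl1, PAR2, did not rise above 18 counts in any pool. F2rl3, PAR4, reached 20.2 CPM in a single jugular pool and was nearly absent from the others. F2r and F2rl2 passed edgeR's low-count filter, and F2rl1 and F2rl3 did not.

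F2r measured 561 and 576 CPM in the capsaicin nodose pools, 270 and 381 CPM in the Trpv1-positive nodose pools and 81.0 and 73.3 CPM in the Trpv1-negative nodose pools. Jugular pools of the Trpv1 selection held 21.9 and 0.0929 CPM (5078 and 23 counts), and those of the capsaicin selection 0.196 and 0.0417 CPM (5 counts and 1 count). All 6 nodose pools were above all 4 jugular pools, and the nearest pair, a Trpv1-negative nodose pool and the first Trpv1-positive jugular pool, was 3.35-fold apart. The jugular pools themselves disagreed: the first Trpv1-positive jugular pool stood far above the other 3. In that pool the nodose markers P2rx2 and Hoxb5 were at 0.0732 and 0.0991 CPM, and in the second pool at most 0.113 CPM, while Tac1 was at 860 CPM.

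**Figure D1:**
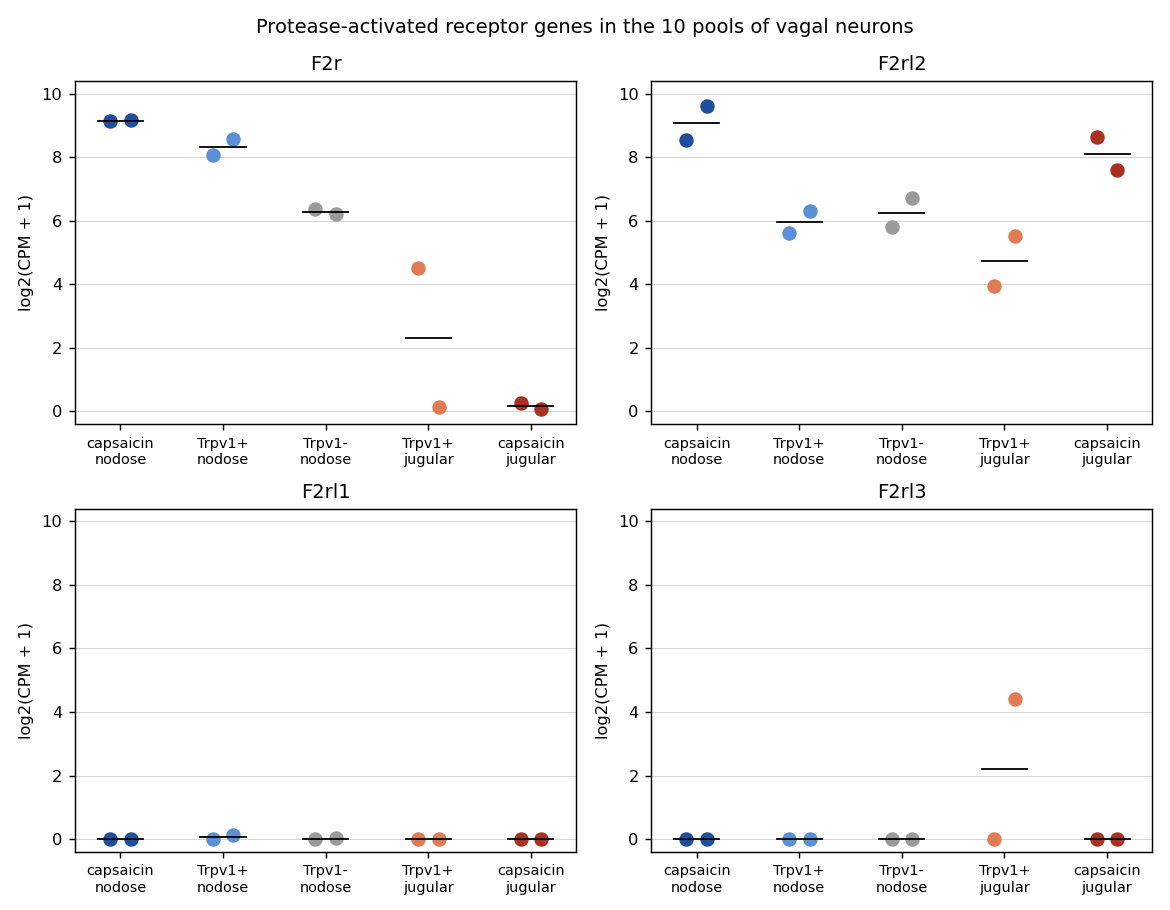
Levels of the 4 receptor genes as log2(CPM + 1), with 1 point per pool, 2 pools per group and the group mean as a black line. F2r steps down from the nodose groups to the jugular groups with 1 raised jugular pool, F2rl2 is highest in the 4 capsaicin pools, F2rl1 lies on 0 and F2rl3 leaves 0 in 1 pool.

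Ordered by group mean, F2r ran from 569 ± 10.1 CPM (SD, n = 2) in capsaicin nodose neurons through 326 ± 78.5 CPM in Trpv1-positive nodose, 77.1 ± 5.4 CPM in Trpv1-negative nodose and 11 ± 15.4 CPM in Trpv1-positive jugular to 0.119 ± 0.109 CPM in capsaicin jugular neurons. Neighbouring groups did not overlap except the 2 jugular groups. The place of the top 2 groups depended on the scale, since counts over plain totals without the ribosomal RNA gene Rn45s gave 461 CPM in capsaicin nodose and 466 CPM in Trpv1-positive nodose neurons. In pooled neurons, fewer cells that express a gene and less RNA per cell cannot be told apart.

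The study asked how nodose and jugular capsaicin-sensitive neurons differ. A gene was called where edgeR's quasi-likelihood test gave a Benjamini-Hochberg adjusted p of at most 0.1 over all genes tested, the fold was at least 2 and the CPM was at least 10 in both pools of a compared group. When the nodose over jugular differences of both selections were averaged in a fit of all 10 pools, F2r was higher in nodose neurons by 8.50 on the log2 scale (SE 1.42, 95% interval 5.34 to 11.65, edgeR adjusted p = 0.0216). It was called, F2rl2 was not, and the background was 213 of 12957 genes called, or 1.64%. This call was lost without the second capsaicin jugular pool (8.13, adjusted p = 0.146), and the estimate rose to 11.92 without the first Trpv1-positive jugular pool.

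Within each selection, which gave 2 pools against 2, F2r passed no adjusted threshold. In the Trpv1 selection its log2 fold change was 4.89 (SE 2.16, 95% interval -0.60 to 10.38, edgeR adjusted p = 0.492). Without the first Trpv1-positive jugular pool it was 11.74, and without the second it was 3.88. Each of these fits leaves 1 pool in a group, where all calls of this comparison were lost, so only the estimates are read. The 2 groups did not overlap, with the nearest pools 12.3-fold apart, but the 2 jugular pools differed from each other by more than the nodose pools did. The background there was 35 of 10990 genes called, or 0.318%. In the capsaicin selection the log2 fold change was 11.83 (SE 1.28, 95% interval 8.59 to 15.08, edgeR adjusted p = 0.155), and the nearest pools were 2860-fold apart. F2r ranked 8 of 8181 genes by its p, and the background was 0 genes called, or 0.0%, with 1150 genes at an unadjusted p below 0.05 and 734 called by DESeq2 without edgeR's low-count filter, which also called F2r (12, adjusted p = 2.25e-05). Thus the call in the averaged comparison came from estimates that pointed the same way in both selections, with the wider spread in the Trpv1 selection.

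The size of the F2r difference varied between the selections, by -7.20 on the log2 scale (Trpv1 minus capsaicin selection, SE 2.32, 95% interval -12.34 to -2.06), which did not pass after adjustment (edgeR adjusted p = 0.423; 7 genes called, 0.054%). A single pool set this value: without the first Trpv1-positive jugular pool it was -0.34, and without the second it was -8.20 and was called (adjusted p = 0.0360).

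**Figure D2:**
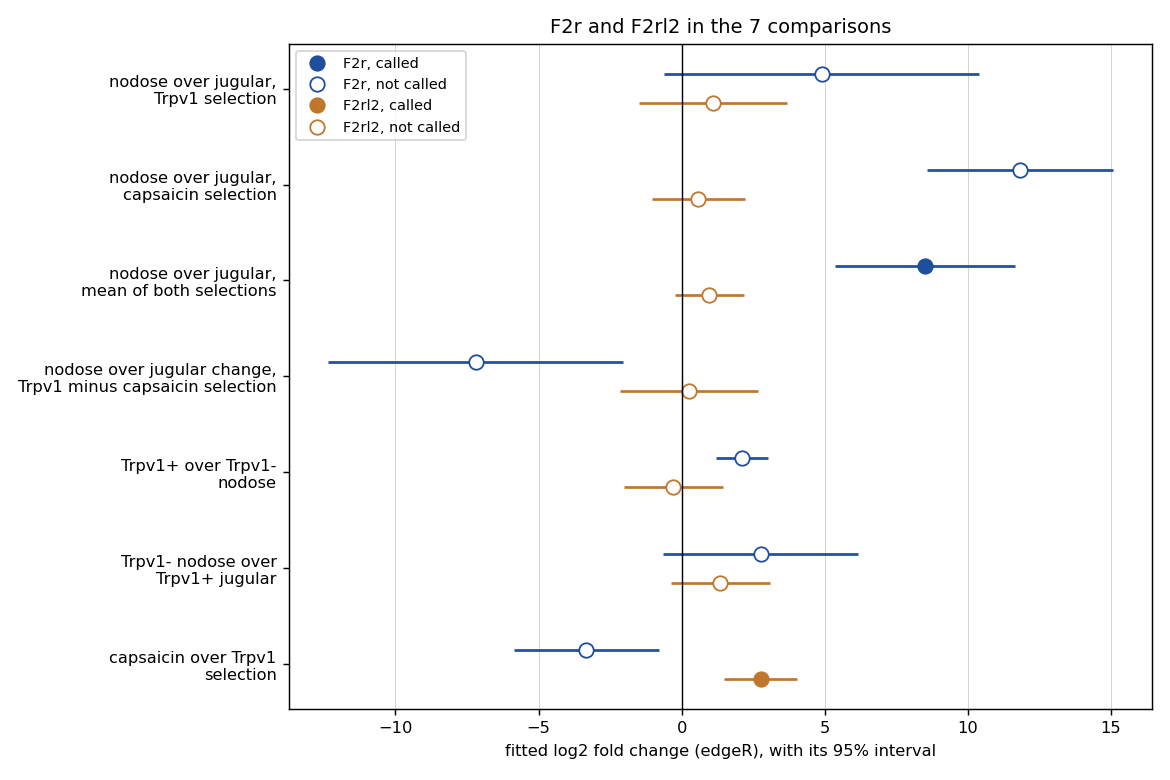
Fitted log2 fold changes of F2r (blue) and F2rl2 (brown) in the 7 comparisons, with 95% intervals as lines, and filled points where the gene was called. F2r is called for nodose over jugular in the mean of both selections, and F2rl2 for capsaicin over Trpv1 selection.

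Trpv1-positive and Trpv1-negative nodose neurons came from the same mice and core. F2r was present in both, at 270 and 381 CPM against 81.0 and 73.3 CPM, and the groups did not overlap. The log2 fold change was 2.11 (SE 0.36, 95% interval 1.19 to 3.03), which ranked 33 of 11386 genes by p and was not called (edgeR adjusted p = 0.366; 6 genes called, 0.0527%). These 2 Trpv1-negative pools also exceeded both Trpv1-positive jugular pools in F2r, with a log2 fold change of 2.76 (SE 1.53, 95% interval -0.63 to 6.15, edgeR adjusted p = 0.676; 14 genes called, 0.108%). Without the first Trpv1-positive jugular pool this became 9.62 and was called (adjusted p = 0.0336). Both comparisons use pools that also enter the nodose and jugular comparison of the Trpv1 selection.

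F2rl2 behaved differently from F2r. It measured 47.8 and 78.5 CPM in Trpv1-positive nodose, 14.6 and 44.6 CPM in Trpv1-positive jugular and 54.3 and 105 CPM in Trpv1-negative nodose pools. In the capsaicin selection the nodose pools held 371 and 783 CPM, and the jugular pools 395 and 192 CPM. The lowest capsaicin pool was 2.45-fold above the highest Trpv1-positive pool and also above both Trpv1-negative pools, whereas the nodose and jugular pools of the capsaicin selection overlapped.

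F2rl2 did not pass for nodose over jugular in the Trpv1 selection (log2 fold change 1.08, 95% interval -1.51 to 3.68, edgeR adjusted p = 0.848), in the capsaicin selection (0.58, 95% interval -1.05 to 2.22, adjusted p = 0.991) or in their mean (0.97, 95% interval -0.24 to 2.18, adjusted p = 0.401). The last interval leaves room for a nodose excess of up to 2.18 on the log2 scale. Trpv1-positive and Trpv1-negative nodose neurons likewise overlapped in F2rl2 (-0.29, 95% interval -2.02 to 1.44, edgeR adjusted p = 0.983). Its nodose over jugular change differed between the selections by 0.26 (95% interval -2.14 to 2.66, edgeR adjusted p = 0.9999).

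Between the selections, a comparison added after the values were seen, F2rl2 was higher in the capsaicin pools by 2.76 on the log2 scale (SE 0.58, 95% interval 1.48 to 4.04, edgeR adjusted p = 0.0170). It was called, against a background of 1401 of 12957 genes, or 10.8%, of which 366 were higher and 1035 lower in the capsaicin pools. The median of all genes tested in this comparison was -1.23 after TMM scaling and -0.79 with DESeq2 size factors, and F2rl2 lay 3.99 and 4.04 above these medians. F2r gave -3.33 in the same comparison (95% interval -5.87 to -0.78, edgeR adjusted p = 0.110), and this turned to 0.10 without the first Trpv1-positive jugular pool. Depth, core, strain and cell number change with the selection, so that this contrast compares experiments and not the way of choosing neurons alone. The capsaicin pools had also been exposed to a P2X agonist and to capsaicin before collection. The paper names a possible change of some genes by this assay as its drawback, and the part of the exposure was not tested.

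Because F2rl2 lies inside Iqgap2 on the other strand, and strand setting of the counting is not given in the sources used here, reads from an Iqgap2 intron could not be separated by strand from F2rl2. Iqgap2 was at 0 CPM in both capsaicin nodose pools and in the first capsaicin jugular pool, where F2rl2 was at 371, 783 and 395 CPM. Its highest value was 26.9 CPM in the second Trpv1-positive nodose pool, where F2rl2 was at 78.5 CPM.

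The balance of F2r and F2rl2, as a ratio of CPM per kilobase of exon, differed between pools. In the Trpv1-positive nodose pools F2rl2 stood at 0.236 and 0.275 of F2r. In the Trpv1-negative nodose pools the ratio was 0.894 and 1.91, and in the capsaicin nodose pools 0.881 and 1.81. The capsaicin jugular pools had ratios of 2690 and 6150, which rest on 5 counts and 1 count of F2r, and the Trpv1-positive jugular pools 0.887 and 641. Thus PAR1 transcript dominated in Trpv1-positive nodose neurons and PAR3 transcript in 3 of the 4 jugular pools, while the first Trpv1-positive jugular pool held both at like levels per kilobase.

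F2rl1, the receptor for trypsin and tryptase, had 2 and 18 counts in the Trpv1-positive nodose pools, 0 and 3 counts in the Trpv1-negative nodose pools and no count in the other 6 pools. Its highest level, 0.0883 CPM in the second Trpv1-positive nodose pool, was the only one above 3 counts. At the depth of the capsaicin pools the same level would give 2.07 to 3.61 counts, so a level like it was barely detectable there. No difference in F2rl1 was detectable at these depths.

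F2rl3 had 5004 counts, or 20.2 CPM, in the second Trpv1-positive jugular pool, and 0 or 1 count in each of the other 9 pools. That level would give 527 to 919 counts at the depth of the capsaicin pools, where both jugular pools had 0 counts. The transcript was therefore strong in 1 pool of 30 neurons and not seen in its partner pool. With 10 CPM not reached in both pools, F2rl3 could not be called in any comparison. DESeq2 alone gave it an adjusted p of 0.0113 for nodose over jugular in the Trpv1 selection (log2 fold change -11.96), against 0.575 in edgeR without the low-count filter. For capsaicin over Trpv1 selection DESeq2 gave 8.17e-07 (-18.28), against 0.330 in that edgeR fit. For Trpv1-negative nodose over Trpv1-positive jugular DESeq2 gave 0.0986 (-11.3), against 0.730 in that edgeR fit. All of these values rest on that 1 pool. F2r and F2rl3 were thus each raised in a different one of the 2 Trpv1-positive jugular pools: the first had 5078 counts of F2r and none of F2rl3, and the second 23 counts of F2r and 5004 of F2rl3.

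**Figure D3:**
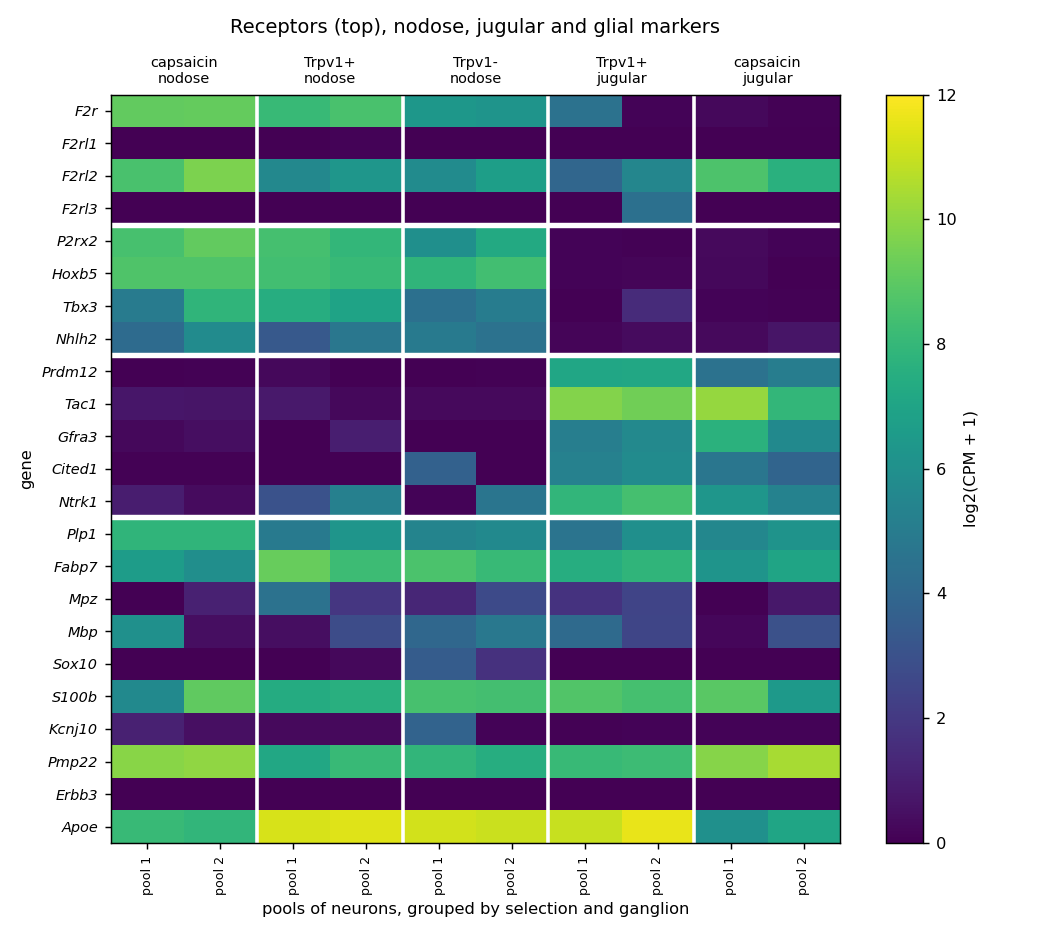
Log2(CPM + 1) of the 4 receptors, 4 of the nodose markers, 5 jugular markers and 10 markers of satellite glia and Schwann cells (from top to bottom) in the 10 pools. The first Trpv1-positive jugular pool holds F2r at 21.9 CPM with these nodose markers at most 0.129 CPM, and glial markers such as Apoe are seen in every pool.

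F2r is also known from platelets, endothelium, fibroblasts and glia, and the part of such cells in its levels was not tested. The levels of their markers follow. Of 10 markers of satellite glia and Schwann cells, 6 had more than 3 counts in every pool, and the list summed to 2949 to 4034 CPM with the Trpv1 selection, against 1582 to 2093 CPM with the capsaicin selection. No glial marker was called between the ganglia. Between the selections, where F2rl2 was called, 3 of the 9 glial markers tested were called, beside 10.8% of all genes. Pmp22, a myelin protein gene, was higher with the capsaicin selection (914 to 1391 CPM) than in the Trpv1-positive pools (144 to 296 CPM), like F2rl2 (1.66, SE 0.32, edgeR adjusted p = 0.0107), whereas Apoe (-4.50, adjusted p = 4.98e-05) and Fabp7 (-2.20, adjusted p = 0.0138) were lower. Their part in the F2rl2 difference was not tested. The defining glial markers Sox10 and Erbb3 were at most 10.2 and 0.0257 CPM. Endothelial markers summed to 0 to 63.9 CPM, led by Egfl7 at up to 60.5 CPM, which was called lower with the capsaicin selection. Cdh5, Cldn5 and Tie1 were without a count in any pool. Kdr was at 23.0 CPM in the second Trpv1-positive nodose pool and 2.45 CPM in the second Trpv1-negative nodose pool. Flt1 and Tek reached at most 3.22 and 1.90 CPM, also in nodose pools. Kdr, Flt1 and Tek were at 0 CPM in the jugular pools, in the direction of F2r, whereas Egfl7 was read in both ganglia. By group, the endothelial sums were 0 and 3.22 CPM in capsaicin nodose, 50.6 and 63.9 CPM in Trpv1-positive nodose and 54.9 and 31.2 CPM in Trpv1-negative nodose pools. In jugular pools they were 43.2 and 60.5 CPM with the Trpv1 selection and 0 and 11.8 CPM with the capsaicin selection. Fibroblast markers summed to 0 to 38.4 CPM in nodose and 4.71 to 239 CPM in jugular pools.

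The 6 platelet markers summed to 0.0585 to 36.2 CPM in nodose and 0 to 17.0 CPM in jugular pools. Of these, Pf4, Ppbp and Gp9 were without a count and Itgb3 was at most 0.0589 CPM. Itga2b, an integrin subunit of platelets, was higher in both Trpv1-positive nodose pools (16.6 and 20.8 CPM) than in both Trpv1-positive jugular pools (5.55 and 5.07 CPM), in the direction of F2r, and was not called (1.81, SE 1.74, edgeR adjusted p = 0.854). With the capsaicin selection 1 nodose pool (12.4 CPM) and 1 jugular pool (11.5 CPM) held it, and their partner pools had no count. Gp1bb was at 19.6 and 0 CPM in Trpv1-positive nodose and 0.810 and 11.9 CPM in Trpv1-positive jugular pools. Of 7 macrophage markers measured, 6 were without a count. The seventh, Cd68, was at 75.7 CPM in the first capsaicin nodose pool and 0.117 CPM in the second, at 17.9 CPM in the first capsaicin jugular pool and at most 4.66 CPM elsewhere. All 6 mast cell markers were without a count.

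Few transcripts of the proteases that cleave these receptors were read. Of 46 activating or cleaving proteases, 22 had no count in any pool, and 3 reached 10 CPM in both pools of a group: the prohormone convertases Pcsk1 and Pcsk2 and the calcium-dependent protease Capn1. None of the 11 tested was called for nodose over jugular in the mean of both selections, and their median log2 fold change was -0.34 beside -0.12 over all genes. Pcsk1 was at 76.6 and 88.6 CPM in Trpv1-positive nodose and 0.0172 and 7.85 CPM in Trpv1-positive jugular pools, but 8.04 and 104 CPM in Trpv1-negative nodose pools (mean of both selections 4.09, SE 1.71, edgeR adjusted p = 0.268).

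Among 23 cofactors and inhibitors of these proteases, 15 were tested for nodose over jugular in the mean of both selections. In nodose neurons 1 was called lower and none higher, beside 1.64% of all genes called. Serpinb1a, an inhibitor of neutrophil serine proteases, was at 106 to 132 CPM in Trpv1-positive jugular and 139 and 22.4 CPM in capsaicin jugular pools, and at most 0.117 CPM in all 6 nodose pools (-10.68, SE 1.51, edgeR adjusted p = 0.00902). The median of the 15 was 1.34, opposite in sign to Serpinb1a. Plaur, the urokinase receptor, was at 492 and 2866 CPM in capsaicin nodose and 252 and 252 CPM in capsaicin jugular pools against 0.0441 to 25.5 CPM in the Trpv1-positive pools. It was called for capsaicin over Trpv1 selection (7.33, SE 0.93, edgeR adjusted p = 0.00109), together with Serpini1, called higher, and Cst3 and Timp1, called lower, which makes 4 of 15 beside 10.8% of all genes. Of 15 alternatives, Plaur and Cst3 kept this call in all 15, Serpini1 lost it in 4 and Timp1 in 8.

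Of 11 G protein alpha subunits through which the receptors signal, 10 were tested for nodose over jugular in the mean of both selections. Of these, 1 was called, beside 1.64% of all genes. Gna14, of the Gq class that raises calcium, was a jugular gene with the reverse pattern of F2r: 120 and 152 CPM in Trpv1-positive jugular and 343 and 293 CPM in capsaicin jugular pools, and at most 0.234 CPM in the 6 nodose pools (-11.26, SE 0.96, edgeR adjusted p = 0.00031). It was called in the Trpv1 selection alone as well (-11.80, edgeR adjusted p = 0.0453). Without any 1 of the 4 pools its log2 fold change stayed between -12.15 and -11.53. Such a fit leaves 1 pool in a group, and there every call of this comparison was lost, not that of Gna14 alone. The broadly expressed Gq member Gnaq was at 35.5 to 110 CPM in the Trpv1-positive pools and 403 to 703 CPM in the capsaicin pools, and was called between the selections (2.60, SE 0.51, edgeR adjusted p = 0.0127), as were Gna11, called higher, and Gnai2, called lower (3 of 10 beside 10.8% of all genes). Gnaq kept its call in all 15 alternatives, whereas Gna11 lost it in 10 and Gnai2 in 6. The median of the 10 subunits for nodose over jugular was -0.36.

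None of the 22 tested of 24 effectors downstream of the G proteins (phospholipases, IP3 receptors and protein kinases among them) was called between the ganglia, with a median of -0.09. The effectors with the largest estimates were the kinase gene Rock2 (4.92, SE 1.41, edgeR adjusted p = 0.167) and the protein kinase C gene Prkca (-4.39, SE 1.17, adjusted p = 0.144). Prkd1 and Mapk3 were called between the selections (2 of 22 beside 10.8% of all genes). Mapk3 kept this call in all 15 alternatives and Prkd1 lost it in 10. Of 20 genes that desensitise or sort the receptors, all tested, 1 was called in the mean of both selections, beside 1.64% of all genes. This was Rgs4, which speeds the shut-off of Gq and Gi signals, lower in nodose neurons (-1.94, SE 0.31, edgeR adjusted p = 0.0171). Rgs4 was not called within the Trpv1 selection (-1.37, edgeR adjusted p = 0.321) or within the capsaicin selection (-2.81, edgeR adjusted p = 0.352). It measured 292 and 170 CPM in Trpv1-positive nodose against 505 and 683 CPM in Trpv1-positive jugular pools, and 303 and 618 CPM in capsaicin nodose against 1708 and 3109 CPM in capsaicin jugular pools. The Trpv1-negative nodose pools, at 598 and 779 CPM, were not low: they gave 0.15 over the Trpv1-positive jugular pools (SE 0.43, edgeR adjusted p = 1.0). The other 19 gave no call between ganglia, and the median of the 20 was -0.82. Between the selections Grk6, Dnm1 and Dnm2 were called lower and Rgs4, Snx2 and Ap2m1 higher in the capsaicin pools, 6 of 20 beside 10.8% of all genes. Of 15 alternatives, Grk6 kept this call in all 15, Ap2m1 lost it in 2, Dnm1 and Snx2 each in 4, and Rgs4 and Dnm2 each in 7.

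**Figure D4:**
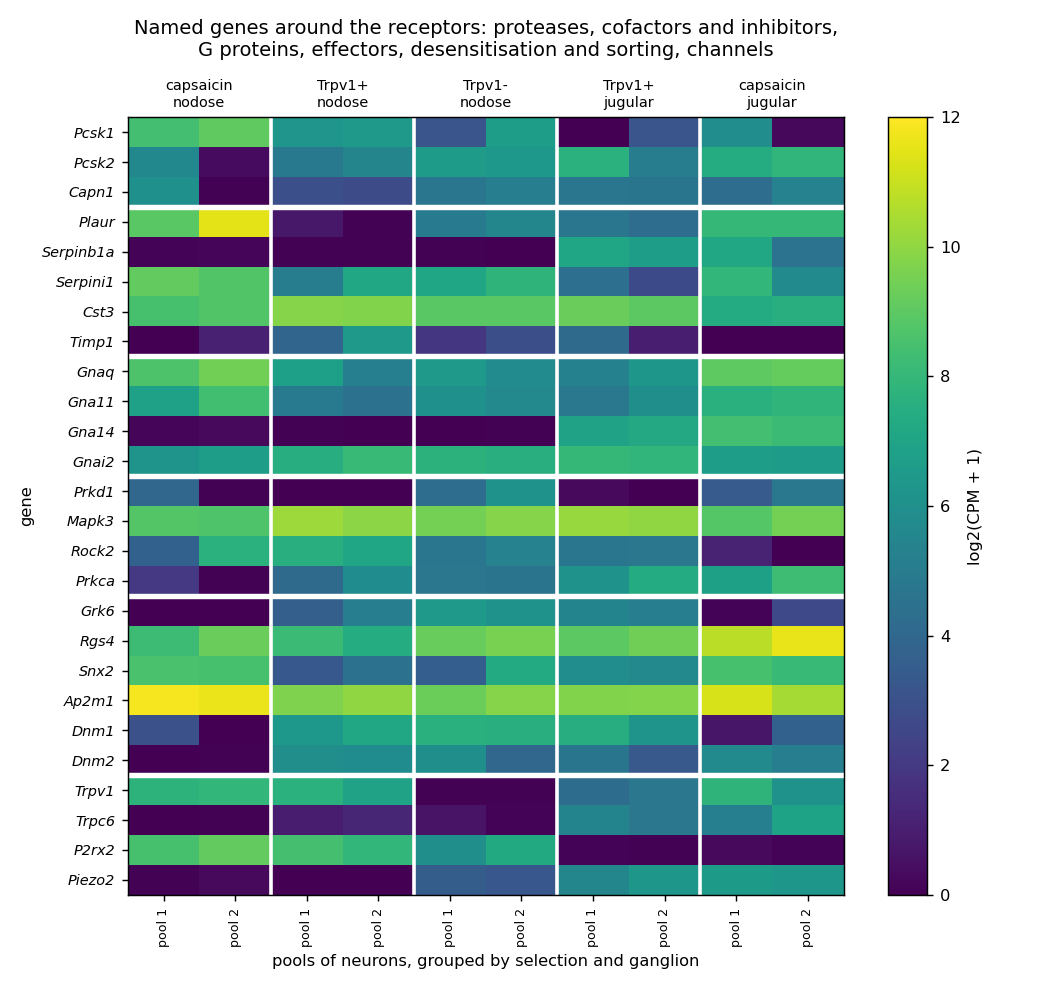
Log2(CPM + 1) of the named genes around the receptors in the 10 pools, in 6 blocks from proteases at the top to sensory channels at the bottom. Serpinb1a, Gna14, Trpc6 and Piezo2 are read in jugular pools and P2rx2 in nodose pools, while Plaur and Gnaq are highest in capsaicin pools.

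The list of sensory channels held 18 genes taken as possible targets of PAR signalling, and an action of the receptors on them was not tested. Of these, 15 were tested for nodose over jugular in the mean of both selections. In nodose neurons 1 was called higher and 3 lower (median 0.18), or 4 of 15 beside 1.64% of all genes. P2rx2, an ATP-gated channel, was higher (11.77, SE 0.80, edgeR adjusted p = 0.000197), but the capsaicin pools had been chosen by the response to a P2X agonist. Piezo2, a mechanically gated channel, was at 44.1 to 92.2 CPM in the jugular pools and at most 0.234 CPM in Trpv1-positive and capsaicin nodose pools (-10.70, SE 1.65, edgeR adjusted p = 0.0138), and 8.66 and 10.8 CPM in Trpv1-negative nodose pools. Without the second Trpv1-positive nodose pool its adjusted p was 0.102. Trpc6, a diacylglycerol-gated channel (-8.20, SE 1.92, edgeR adjusted p = 0.0950), was read in all 4 jugular pools at 26.3 to 122 CPM and was at most 1.48 CPM in the nodose pools. This call was weak, being lost without any pool other than the 2 capsaicin nodose pools (adjusted p 0.118 to 0.369).

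None of the 8 genes next to the receptors that were tested was called between the ganglia. Their median log2 fold change for nodose over jugular in the mean of both selections was 1.21, beside -0.12 over all genes. They include neighbours of F2rl3 on chromosome 8, and several were read in few pools. In the capsaicin selection, Aggf1 was at 0.125 and 2.52 CPM in the nodose pools and at 0 CPM in both jugular pools. The estimates had wide errors, as for Aggf1 (3.53, SE 2.58, edgeR adjusted p = 0.555), Sv2c (2.09, SE 1.92, adjusted p = 0.680) and Sin3b (1.61, SE 0.83, adjusted p = 0.350). F2rl2's host Iqgap2 was at 26.9 CPM in 1 Trpv1-positive nodose pool and at most 0.0162 CPM in both Trpv1-positive jugular pools, Aggf1 was at 27.1 and 16.9 CPM in the Trpv1-positive jugular pools against 0.124 and 5.36 CPM in Trpv1-positive nodose pools, and S100z, which lies beyond F2rl1 from F2r, had no count. Crhbp was at 85.9 CPM in the second capsaicin nodose pool and at most 0.0834 CPM elsewhere. Beside F2rl3, Nwd1 was at most 0.959 CPM and Sin3b ranged from 8.63 to 169 CPM over the 10 pools, while Zbed3, Pde8b and Sv2c of chromosome 13 were at most 2.16, 52.6 and 71.0 CPM.

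The pattern of F2r over the 10 pools was compared with that of 7503 other genes that reached 10 CPM in both pools of a group, by the root mean square difference of log2(CPM + 1) centred on its mean. Of the 8 nearest, the 7 named here were Nrsn2 at 1.07, S1pr3 at 1.25, P2rx2 at 1.40, Gsn at 1.41, Cyp1b1 at 1.52, Rgs9 at 1.57 and Myl1 at 1.60, against a median of 4.09 over all genes. Of the 8, 5 stayed among the nearest 8 when 0.1 was added before the logarithm in place of 1. F2r was at 21.9 and 0.0929 CPM in the Trpv1-positive jugular pools. The first of these pools was also the higher for S1pr3, a receptor for sphingosine-1-phosphate, at 57.3 and 11.9 CPM. The same held for Gsn, the actin-severing protein gelsolin, at 24.1 and 2.59 CPM. It also held for Cyp1b1 at 6.78 and 1.04 CPM and Nrsn2 at 1.44 and 0.0162 CPM. These pools had entered the choice of the 8 genes, so that a shared direction is partly built in. P2rx2 was low in both, at 0.0732 and 0.0525 CPM. F2rl2 ranked 2670 with a difference of 3.79.

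**Figure D5:**
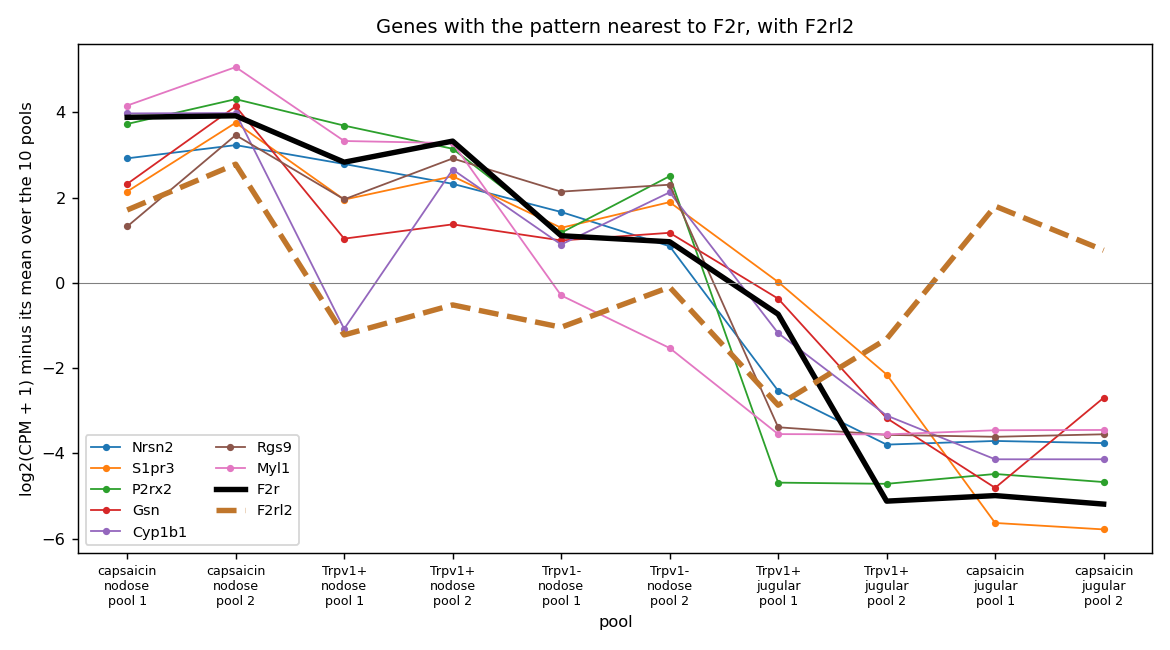
Log2(CPM + 1) minus its mean over the 10 pools for F2r (black), 7 of the 8 genes with the nearest pattern (thin lines) and F2rl2 (dashed). These 7 genes are higher in the capsaicin nodose than in the capsaicin jugular pools like F2r, whereas F2rl2 rises again in the capsaicin jugular pools.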

How the data were processed

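The authors aligned 50-base read pairs to mm10 with TopHat2 2.0.9 and Bowtie2 2.1.0.0 and counted them per gene symbol with HTSeq. The deposited values are raw counts, not normalized, 1 table per pool. Annotation and strand setting are not given in the sources used here. No molecular identifiers were used, so amplification copies count as reads. Groups came from the sample titles. From the counts, CPM was computed with DESeq2 1.42.0 size factors and the geometric mean total. Differences were tested with edgeR 4.0.16 (TMM, filterByExpr, glmQLFit, glmQLFTest; R 4.3.3) and Benjamini-Hochberg adjustment over all genes. The 3 comparisons of 2 groups used their own 4 pools, and the other 4 a fit of all 10 pools with 1 mean per group. The code was tested on simulated data. DESeq2 was an alternative. Tables were made in Python 3.11.15. The exact permutation test of 2 against 2 pools cannot pass any usual threshold and was not used. Members and gene lists were chosen with earlier results of these data known. Of each list, called genes were named, or up to 4 with the largest change. Sequences came from GRCm38. Cpamd8 and Emr1 were not analysed here. A few genes that these rules would name are not reported here.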

Additional observations from a re-analysis of the deposited data

How the results depend on the processing

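With DESeq2 and its own filter in place of edgeR and its low-count filter, a change of both test and genes tested, the genes called rose to 459 (Trpv1 selection), 734 (capsaicin selection), 321 (Trpv1-positive over Trpv1-negative), 1742 (mean of both selections), 1293 (difference between selections), 383 (Trpv1-negative nodose over Trpv1-positive jugular) and 2894 (capsaicin over Trpv1 selection). DESeq2 also called F2r in the capsaicin selection (12), in the difference (-7.33) and between the selections (-2.86). Without the low-count filter the genes called were 59, 122, 10, 628, 163 and 60 in the first 6 of these comparisons, and F2r was called in the capsaicin selection (11.85), in the difference (-7.21) and between the selections (-3.34). A fit of all 10 pools gave 110 genes and a call of F2r (12.10) in the capsaicin selection. The causes of these shifts were not tested.

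Leaving out each pool in turn gave 0 genes (Trpv1 selection), 0 to 29 (capsaicin selection), 0 (Trpv1-positive over Trpv1-negative), 91 to 781 (mean), 0 to 401 (difference), 9 to 35 (Trpv1-negative nodose over Trpv1-positive jugular) and 725 to 2075 (capsaicin over Trpv1 selection). F2r then ranged from 3.88 to 11.74 in the Trpv1 selection, from 11.18 to 13.20 in the capsaicin selection, from 7.99 to 11.92 in the mean, from -8.73 to -0.34 in the difference, from 1.76 to 9.62 for Trpv1-negative nodose over Trpv1-positive jugular and from -4.09 to 0.10 between the selections. F2rl2 changed sign for Trpv1-positive over Trpv1-negative (-0.69 to 0.21) and in the difference (-0.37 to 1.28), where it was never called. A lone pool left in a group was assumed to vary like the others.

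Same-numbered pools deviated from their group means with r between -0.0273 and 0.0221 over 7504 genes in 10 pairs of groups. The 2 pools of a group correlated at r of 0.556 to 0.738 in log2 CPM, a spread that could hide a shared mouse. Whether same-numbered pools share a mouse was therefore not tested. With the replicate block, F2r was called in the capsaicin selection (12.05, edgeR adjusted p = 0.0557), its estimate in the Trpv1 selection was 7.72, not called, and the genes called were 13, 20, 1, 121 and 0 in the first 5 comparisons.

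Among genes of the lists outside the markers, 29 calls were recomputed in 415 alternatives, of which 313 kept the call and 102 lost it, with no change of sign. For the levels, plain totals and TMM left F2r above F2rl2 in Trpv1-positive nodose neurons (466 against 90.4 CPM and 466 against 90.5 CPM). Depth limits what can be said of F2rl1 in the capsaicin pools.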
